A study of Mus musculus with 6 samples.

Results

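The growth hormone, insulin and insulin-like growth factor receptors were followed here with the ligand, binding protein, adaptors, feedback inhibitor and glucose transporter that work with them, in single-nucleus RNA-seq of mouse white fat. The members were 9 named genes of 56980 listed, found by their symbols and each listed once: Ghr, Insr, Igf1r, Igf1, Igfbp3, Irs1, Irs2, Socs2 and Slc2a4. The rule that names them uses their roles and no measured value, but the set was chosen with earlier results of these data known. All are protein coding; on GRCm39, Insr lies at chr8:3172061-3329647, Igf1r at chr7:67601518-67883416, Igfbp3 at chr11:7156086-7164179, Irs1 at chr1:82210822-82269338, Irs2 at chr8:11034681-11059499, Socs2 at chr10:95219523-95253929 and Slc2a4 at chr11:69831006-69839070. The tissue came from female C57BL/6J mice, wild type and untreated, in 3 groups of 2 libraries. Inguinal subcutaneous fat (SAT) was taken from mice aged 2 months and 24 months, and the gonadal depot (visceral fat, VAT) from mice aged 24 months. Ages are those of the sample labels, and the study's text gives a slightly older age for the aged animals. Visceral fat of young mice was not analysed here, so age was compared in SAT alone and depots were compared at 24 months alone. The labels call all samples adipocytes, but whole depots were taken and nuclei of 11 classes were named. The study's text names 2 mice in each age group as the source of both depots, and the sources used here do not tie a library to a mouse.

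Growth hormone binds its receptor, which signals through the kinase JAK2 to the transcription factors STAT5A and STAT5B, and SOCS2 is a target of that pathway that dampens it in turn. Insulin and IGF-I bind the insulin receptor and the IGF-I receptor, which phosphorylate the adaptors IRS1 and IRS2. The signal then passes through PI3 kinase and AKT and brings the transporter GLUT4, encoded by Slc2a4, to the surface of fat and muscle cells. In fat, insulin drives glucose uptake and restrains lipolysis, whereas growth hormone favours lipolysis and induces IGF-I.

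The 6 libraries held 8061862 to 16226690 unique molecular identifiers (UMIs, each standing for a counted RNA molecule), and 27074 of 50859 barcodes passed the filters, 2490 to 5776 in a library, with a median of 1380 to 1878 UMIs. Any pair of libraries shared at most 61 barcodes. Values are CPM, the count of a gene's UMIs scaled to a fixed total per library and class, of all nuclei of a class summed within a library. UMIs were not scaled to transcript length, so levels were compared between samples and classes and not between genes. Adipocyte nuclei carried all 10 adipocyte markers in every library, at a summed 13797 to 16282 CPM. Nuclei grouped as mesothelial carried 4723 and 5590 CPM of mesothelial markers in VAT but 11.7 to 50.5 CPM in SAT, and those grouped as epithelial in the first VAT library carried 113 CPM of epithelial markers against 4084 to 6603 CPM in SAT, so these were left out of their classes. The second VAT library stood apart: 153 of its 5070 nuclei were adipocytes, its markers of ovary or oviduct summed to 2601 CPM against 24.8 to 50.7 CPM in the other libraries, and its fibro-adipogenic progenitors (FAPs) carried 5420 CPM of FAP markers against 23686 to 41660 CPM elsewhere.

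Ghr, the growth hormone receptor, lies on the minus strand of chr15:3347235-3613024 (GRCm39). In adipocyte nuclei it measured 6203 and 6589 CPM in SAT at 2 months, 13356 and 12885 CPM in SAT at 24 months, and 12796 and 16798 CPM in VAT at 24 months. Both young libraries were below every aged library of either depot. Igf1, the IGF-I ligand on the plus strand of chr10:87693642-87772904 (GRCm39), measured 130 and 216 CPM, then 278 and 349 CPM, then 312 and 186 CPM in the same order. All 4 SAT libraries were ordered by age, while the second VAT library fell among the young ones. RefSeq gives 2 starts for Ghr and 1 for Igf1 in the promoter table used here, and the sequences from 250 bases before to 50 bases after each start are shown because Ghr was the member called higher with age in SAT adipocytes and Igf1, whose adjusted p lay just over the threshold, encodes the ligand that growth hormone induces. Coordinates are of GRCm38.p6, all sequences read 5′ to 3′ on the gene's strand, and capitals mark the 50 bases after the start.
Ghr, chr15:3583303-3583602, minus strand: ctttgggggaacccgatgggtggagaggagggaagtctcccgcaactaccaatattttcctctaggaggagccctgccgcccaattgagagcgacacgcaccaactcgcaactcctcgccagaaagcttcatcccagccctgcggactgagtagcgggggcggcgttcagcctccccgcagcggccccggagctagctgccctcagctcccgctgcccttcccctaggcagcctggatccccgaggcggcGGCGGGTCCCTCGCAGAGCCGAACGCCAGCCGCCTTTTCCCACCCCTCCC
Ghr, chr15:3581793-3582092, minus strand: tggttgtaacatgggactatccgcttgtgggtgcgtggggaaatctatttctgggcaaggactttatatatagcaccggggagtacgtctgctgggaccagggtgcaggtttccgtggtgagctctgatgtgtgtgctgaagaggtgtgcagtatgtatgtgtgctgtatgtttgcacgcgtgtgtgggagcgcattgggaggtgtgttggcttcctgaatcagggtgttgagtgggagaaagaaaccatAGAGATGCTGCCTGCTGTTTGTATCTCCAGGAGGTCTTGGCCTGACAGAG
Igf1, chr10:87860861-87861160, plus strand: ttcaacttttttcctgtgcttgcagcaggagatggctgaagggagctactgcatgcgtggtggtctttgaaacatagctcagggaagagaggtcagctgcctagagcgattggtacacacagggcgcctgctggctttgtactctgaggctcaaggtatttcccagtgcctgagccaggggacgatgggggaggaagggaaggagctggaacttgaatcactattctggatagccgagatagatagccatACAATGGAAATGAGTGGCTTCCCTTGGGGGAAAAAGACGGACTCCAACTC
The first Ghr window held 67.0% G and C with 23 CpG dinucleotides, the second held 52.3% with 8, and the Igf1 window held 52.3% with 6. Neither TTCNNNGAA, a STAT-type palindrome found in 8.3% of 32851 promoter windows, nor TGTTTAC on either strand, a forkhead-type motif found in 3.65%, occurred in these 3 windows. The table held 7 windows for 6 of the 9 members, and the others, also without either motif, belonged to Irs1, Irs2, Igf1r and Igfbp3. The UMI counts do not tell which start a Ghr transcript used.

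**Figure D1:**
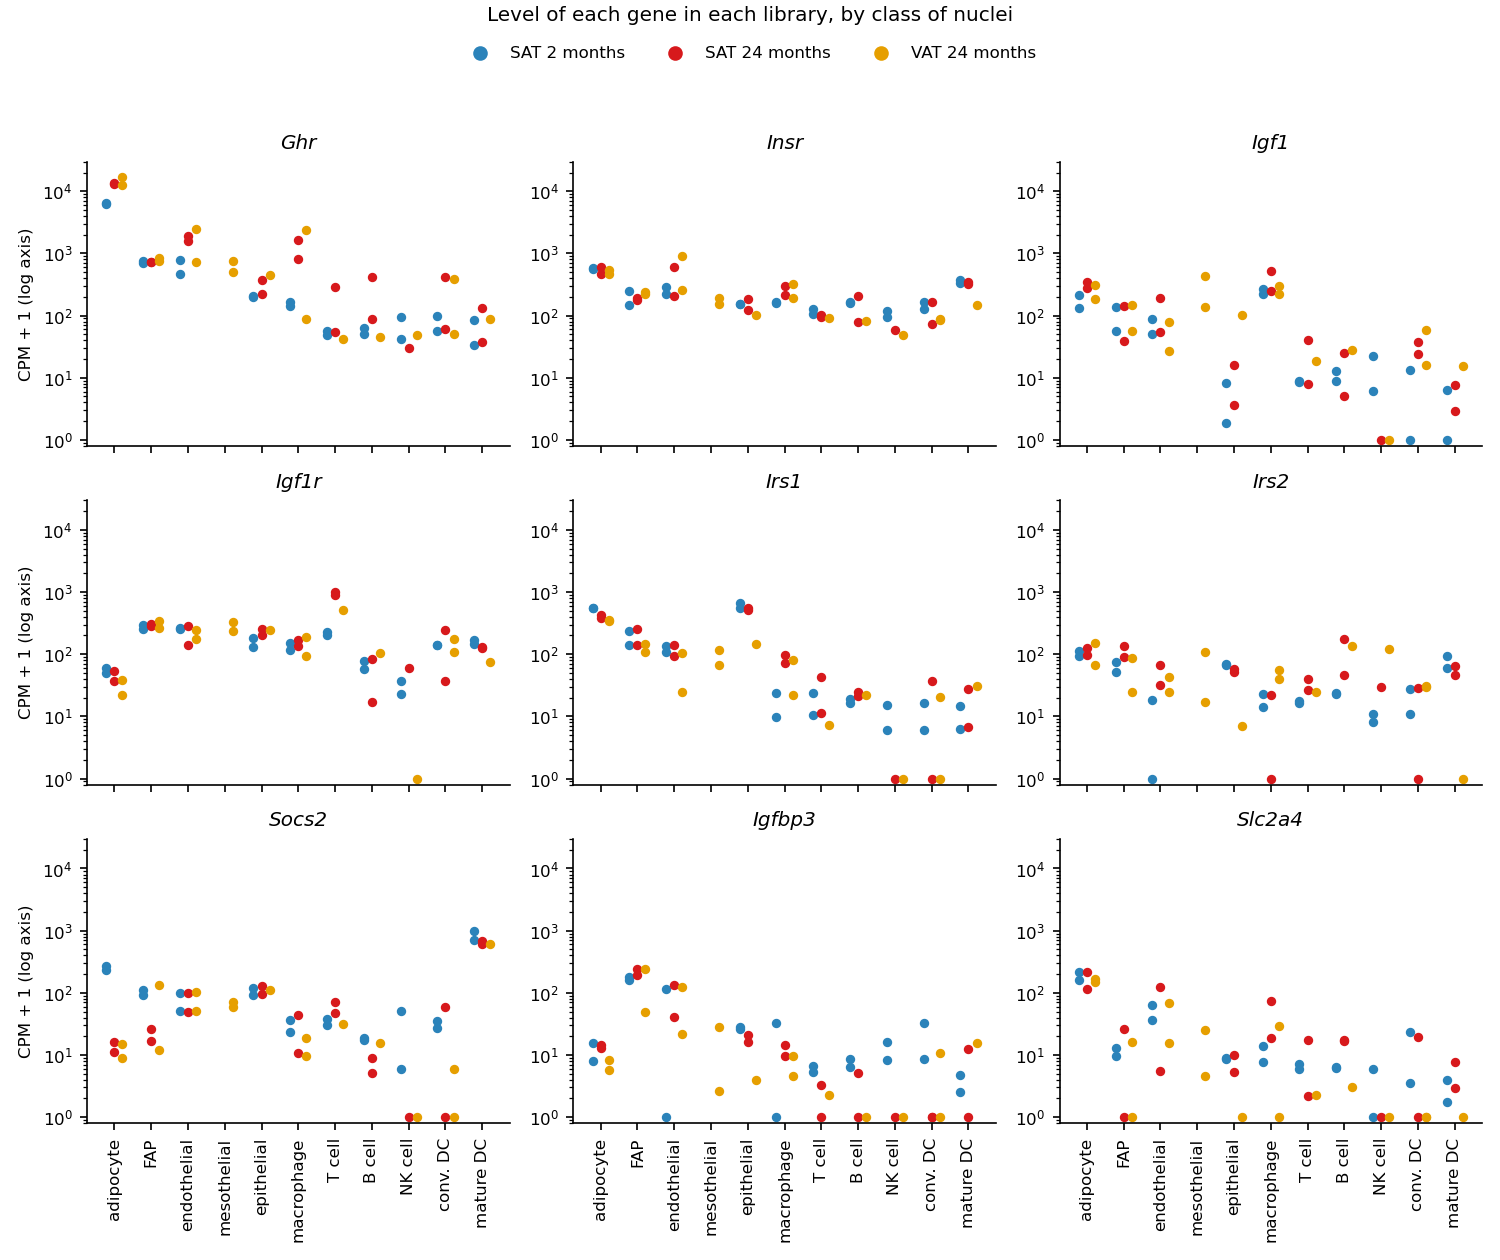
CPM plus 1 (log axis) of each of the 9 genes in each class of nuclei, with 1 point per library and colours for the 3 groups; classes with fewer than 20 nuclei in a library have no point for it. Ghr in adipocytes lay between 6203 and 16798 CPM, above every other class in every library, whereas Socs2 was highest in mature dendritic cells and Igf1r reached its highest values in T cells of aged SAT.

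Across classes, the receptors had different patterns, given here as descriptions with no test. Ghr averaged 11438 ± 4177 CPM (SD over 6 libraries) in adipocytes, and the lowest adipocyte library, at 6203 CPM, lay above the highest library of the next class, endothelial nuclei, at 2487 CPM. Below that, the ranges of endothelial, macrophage, FAP and mesothelial nuclei overlapped in turn. In endothelial nuclei and macrophages Ghr was above what adipocyte RNA alone would give, a level set out below, in 1 of 6 libraries each. FAPs held 696, 741, 721, 737, 852 and 768 CPM of Ghr in the order of groups used above, a narrow band across age and depot. Insr, the insulin receptor, was at 458 to 599 CPM in adipocytes, 208 to 913 CPM in endothelial nuclei and 147 to 373 CPM in mature dendritic cells. The endothelial range overlapped both others, while adipocytes lay above mature dendritic cells. Igf1r was at 251 to 337 CPM in FAPs and at 138 to 281 CPM in endothelial nuclei, but at 21.1 to 58.9 CPM in adipocytes. No FAP or endothelial library was as low as the highest adipocyte library for Igf1r.

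The ligand and its binding protein were highest in different classes. Igf1 averaged 296 ± 112 CPM in macrophages and 245 ± 82.2 CPM in adipocytes (SD over 6 libraries), and was at 430 and 137 CPM in the mesothelial nuclei of the 2 VAT libraries, with overlapping ranges. In a macrophage cluster led by Mrc1, the mannose receptor, Retnla and F13a1, Igf1 measured 224 to 847 CPM over the 6 libraries. In a cluster led by Retnla, Lyz1 and Fn1 it measured 0 to 57.2 CPM over the 4 libraries with at least 20 such nuclei, so the 2 clusters did not overlap. Another, led by Spp1 and Gpnmb, lay above the second and overlapped the first at 97.0 to 318 CPM in 5 libraries. Igfbp3, an IGF-binding protein that prolongs the life of IGF-I in blood and tissue, was at 47.4 to 244 CPM in FAPs, at 0 to 132 CPM in endothelial nuclei, which overlapped them, and at 4.7 to 14.7 CPM in adipocytes. The lowest FAP value was that of the second VAT library.

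Irs1, an adaptor of both receptors, was at 336 to 562 CPM in adipocytes and at 506 to 677 CPM in the epithelial nuclei of SAT. In macrophages, T cells, B cells, NK cells and dendritic cells it reached at most 96.3 CPM. Irs2, its paralog, was at 65.8 to 152 CPM in adipocytes and overlapped there with B cells at 21.7 to 176 CPM and FAPs at 23.7 to 135 CPM. Slc2a4 was at 116 to 219 CPM in adipocytes and at most 121 CPM in any other class, that value being from endothelial nuclei. Socs2 was at 604 to 981 CPM in mature dendritic cells, the migratory form marked by Ccr7 and Fscn1, above every library of every other class, the next highest being young adipocytes at 236 and 266 CPM. The plot of all 9 genes by class shows these patterns library by library.

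For each member, the 2 genes whose levels ran most alike were found by Pearson's r of log2(CPM + 5) over 56 sums of a class within a library, among 5229 genes averaging at least 50 CPM. The sums share libraries and depth, so no p is given. Ghr ran most like Acss3 (r = 0.93), an acyl-CoA synthetase, and Fzd4 (0.91), a Wnt receptor. Of the pair for Slc2a4, Car3 (0.91), the carbonic anhydrase of fat and muscle, is named here. Irs1 ran most like Gulp1 (0.88) and Fermt2 (0.87), and Igfbp3 most like Col6a3 (0.84) and Pdgfra (0.83), the receptor that marks FAPs. Igf1 ran most like C4b (0.84), a complement gene, and Mertk (0.83), a macrophage receptor for dying cells. Insr ran most like Ephx2 (0.76) and Mical3 (0.76), Socs2 most like Vsig10 (0.73) and Cacnb3 (0.71), Igf1r most like Uhrf2 (0.68) and Septin8 (0.66), and Irs2 most like Zfp809 (0.58) and Etfa (0.55).

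With age in subcutaneous adipocytes, the growth hormone receptor rose and its feedback inhibitor fell. Ghr rose from 6396 ± 273 to 13120 ± 332 CPM (SD, n = 2 libraries each), a log2 fold change of 1.2 ± 0.34 (SE, adjusted p = 0.035 in edgeR's quasi-likelihood test over all genes). Socs2 measured 236 and 266 CPM at 2 months and 15.2 and 10.2 CPM at 24 months, from 434, 235, 22 and 57 UMIs. This was 18.6-fold lower with age, at a log2 fold change of -4.22 ± 0.32 (adjusted p = 2.83e-05). Socs2 in aged VAT adipocytes, at 7.85 and 14.1 CPM, overlapped aged SAT. Of 9 members tested, 2 were called at an adjusted p under 0.05 (1 higher, 1 lower), beside 14.6% of 12919 genes tested in this comparison (6.87% higher and 7.73% lower). A median adipocyte nucleus held 9 and 8 Ghr UMIs in the young libraries and 19 and 22 in the aged SAT libraries. With each nucleus thinned to 1000 UMIs, 17.5% (95% exact interval 15 to 20.1) and 19.7% (16.4 to 23.5) of young adipocyte nuclei held a Socs2 UMI, and 1.19% (0.513 to 2.32) and 1.10% (0.704 to 1.63) of aged ones. Unthinned, the shares were 28.7% and 29.8%, then 2.52% and 2.20%. Intervals cover counting error only.

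**Figure D2:**
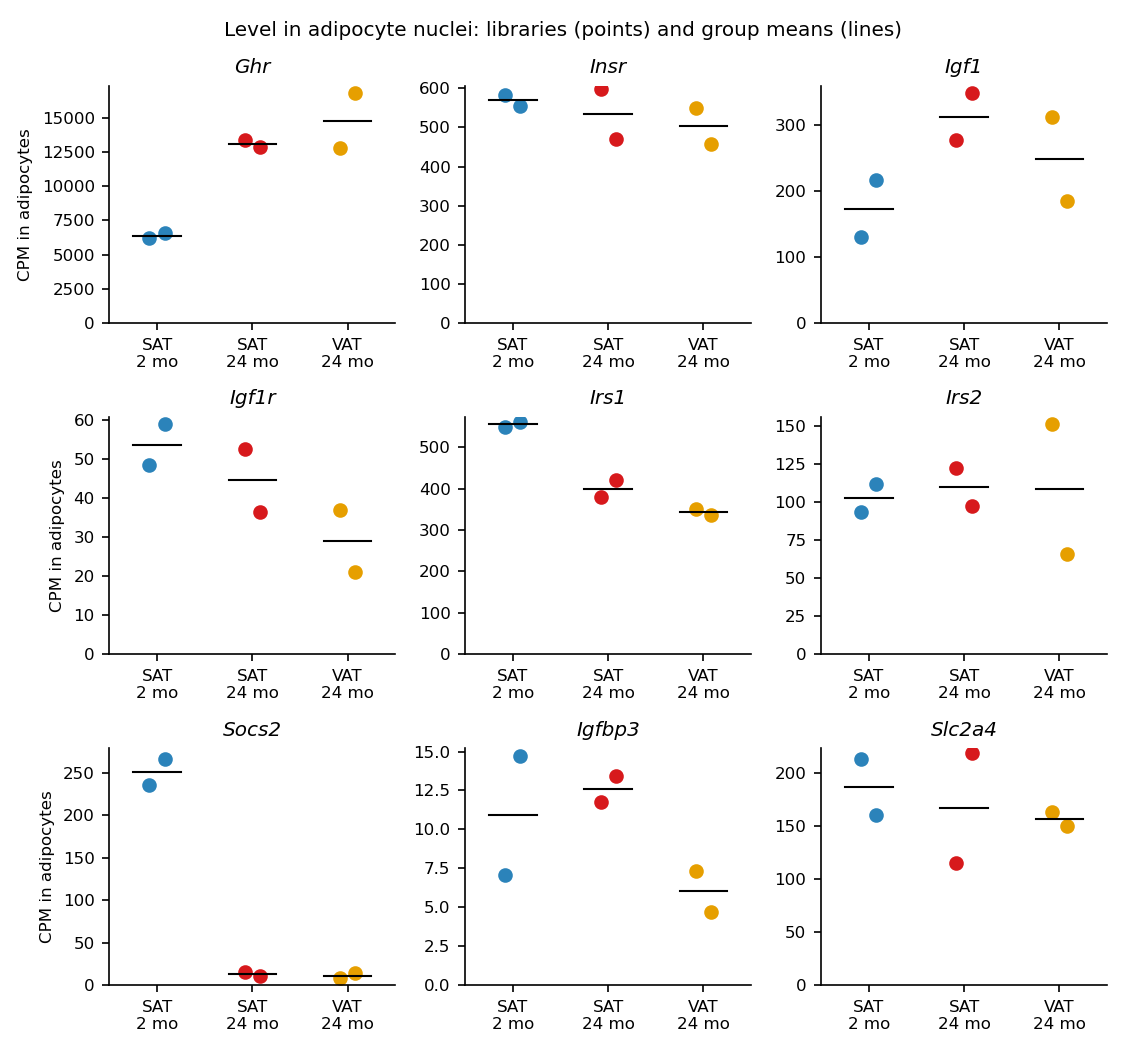
CPM of the 9 genes in adipocyte nuclei by group; points are libraries, black lines are group means, and each axis starts at 0. Ghr was at 12796 to 16798 CPM in the 4 aged libraries against 6203 and 6589 CPM in the young ones, and Socs2 at most 15.2 CPM against 236 and 266 CPM, while Insr, Irs2 and Slc2a4 overlapped between ages in SAT.

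The Ghr call was fragile and the Socs2 call was not. Ghr kept its size but lost its call when only the 4 SAT libraries were fitted (adjusted p = 0.0712), and without SAT 2 months replicate 1 (0.186), SAT 2 months replicate 2 (0.226) or SAT 24 months replicate 1 (0.0531). Socs2 was called in all 17 alternatives, with log2 fold changes of -5.05 to -3.27. The median share of mitochondrial UMIs in a nucleus, over all nuclei kept, moved with age in SAT, at 1.72% and 0.918% at 2 months and 3.49% and 2.91% at 24 months, and was 0.776% and 5.07% in VAT. With nuclei under 5% mitochondrial UMIs alone, the log2 fold change of Ghr was 1.28 (adjusted p = 0.0122) and that of Socs2 was -4.18. Scaling by library size in place of TMM moved the median gene by -0.17 on the log2 scale and the called genes from 47.1% to 32.3% higher, and gave Ghr 1.02 (adjusted p = 0.0428).

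The adipocytes fell into 6 clusters, of which 4 had at least 20 nuclei in every SAT library, and Ghr was called higher with age within 3 of these 4. In the cluster led by Gm31517 and Eepd1 it measured 6272 and 6445 CPM at 2 months and 13423 and 12421 CPM at 24 months (log2 fold change 1.12 ± 0.33, adjusted p = 0.0281). In the cluster led by Fam13a and Acsl1 it measured 6328 and 7266 against 14431 and 14968 CPM (1.19 ± 0.29, adjusted p = 0.00925), and in that led by Slc1a3 and Fam13a 4046 and 4400 against 10292 and 11238 CPM (1.45 ± 0.46, adjusted p = 0.0354). In the last, led by Cfd and Adipoq, aged values of 11893 and 6960 CPM reached down to the young ones of 6682 and 6659 CPM, and Ghr was not called (0.60 ± 0.41, adjusted p = 0.561). Socs2 was called lower in all 4 of these clusters, with log2 fold changes of -5.05 to -3.27. These fits by cluster were added after the data were seen.

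Igf1 missed the threshold in adipocytes. It averaged 173 ± 60.8 CPM at 2 months and 313 ± 50.2 CPM at 24 months in SAT adipocytes, with no overlap, at a log2 fold change of 1.03 ± 0.32 (adjusted p = 0.0506). DESeq2, the fit of the 4 libraries alone and 5 other alternatives put it past the threshold, with adjusted p from 0.00213 to 0.0436. Irs1 was lower in both aged libraries, at 379 and 420 against 550 and 562 CPM, with a log2 fold change of -0.31 ± 0.24 (adjusted p = 0.424). Insr (0.07 ± 0.27), Irs2 (0.26 ± 0.34), Slc2a4 (-0.00 ± 0.30), Igf1r (-0.12 ± 0.33) and Igfbp3 (0.46 ± 0.53) overlapped between ages and were not called, with adjusted p from 0.604 to 0.997.

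RNA of immune cells was present among adipocyte nuclei, at a summed 557 to 1507 CPM for 10 immune markers. The level that this RNA alone would give a gene was taken as its CPM in immune nuclei multiplied by the ratio of immune markers in adipocyte and immune nuclei, an estimate added after the data were seen. For Socs2 it came to 13.8 and 25.8 CPM at 2 months, 5.84% and 9.71% of what was measured. At 24 months it came to 27.1 and 16.4 CPM, above the 15.2 and 10.2 CPM measured, so the aged SAT adipocytes held no more Socs2 than this level. In aged VAT adipocytes it came to 0.924 and 2.65 CPM, 11.8% and 18.8% of what was measured. For Ghr it came to at most 1.36% of the measured value in any library. For Igf1r it came to 26.6% and 49.2% of the adipocyte level at 2 months, 124.9% and 61.0% in aged SAT and 42.9% and 80.9% in VAT, so the adipocyte Igf1r of the first aged SAT library was no higher than this level. For the other 6 members it reached at most 10.5% in any library.

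**Figure D3:**
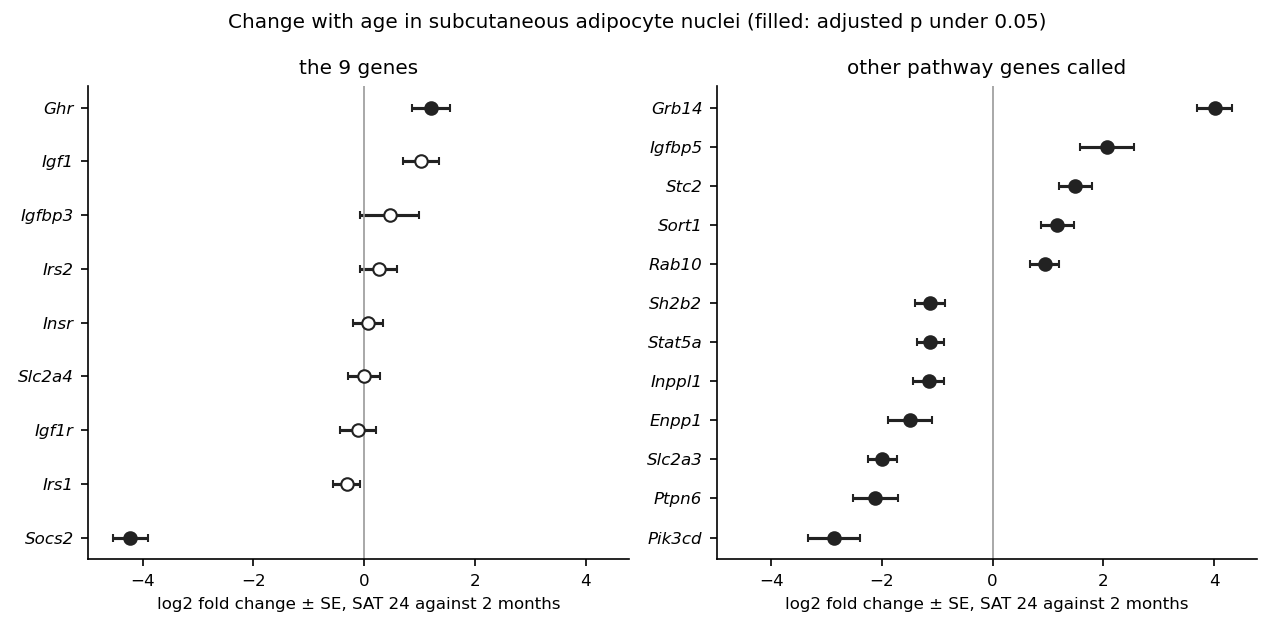
Log2 fold change with its SE for SAT at 24 against 2 months in adipocyte nuclei, for the 9 genes (left) and 12 of the 13 called genes of the pathway lists (right); filled points have an adjusted p under 0.05. Socs2 at -4.22 and Grb14 at 4.01 lay at the ends of the scale.

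Around these members, 13 of 82 tested genes of 5 pathway lists were called with age in SAT adipocytes (5 rose, 8 fell), a share of 15.9%, near the 14.6% of all genes. The median log2 fold change of the 82 genes was -0.03, against 0.00 for all genes. Growth hormone and JAK-STAT genes had 2 of 13 called, both lower. Stat5a fell from 278 and 250 to 92.1 and 123 CPM (log2 fold change -1.13 ± 0.24, adjusted p = 0.00988), whereas its paralog Stat5b, at 148 and 88.4 against 111 and 95.5 CPM, was not called. Ptpn6, the phosphatase SHP-1 of blood cells, fell by 2.12 on the log2 scale, and immune RNA alone would give 59.8% and 50.7% of its young level. Cish, another inhibitor induced by STAT5, was at 15.2 and 57.8 against 17.3 and 8.8 CPM and was not called.

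Among the insulin receptor adaptors and phosphatases 3 of 14 were called. Grb14, an adaptor that binds the activated insulin receptor and inhibits it, rose from 8.15 and 7.93 CPM to 117 and 118 CPM (log2 fold change 4.01 ± 0.32, adjusted p = 3.06e-05) and was called in all 13 alternatives run for it. Sh2b2, an adaptor of the insulin receptor, fell by 1.13 on the log2 scale. Enpp1, a membrane phosphodiesterase that binds the receptor, fell by 1.49. Of the PI3 kinase, AKT and FoxO genes 3 of 27 were called, all lower, among them Pik3cd, which fell by 2.87 on the log2 scale, and Inppl1, the lipid phosphatase SHIP2, which fell by 1.16. Pik3cd is the leukocyte catalytic subunit, and immune RNA alone would give 88.1% and 74.2% of its young level. For Inppl1, Sh2b2 and Stat5a that share was at most 7.45% in young adipocytes.

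Of the IGF ligands, binding proteins and their proteases 2 of 10 were called, both higher. Igfbp5, an IGF-binding protein of the matrix, went from 39.7 and 28.3 to 58.2 and 200 CPM (2.07 ± 0.49, adjusted p = 0.0158), but its log2 fold change was 0.98 without SAT 24 months replicate 2, the library with the high value (adjusted p = 0.128). Stc2, an inhibitor of the protease that frees IGF from its binding proteins, went from 21.2 and 22.7 to 54.0 and 56.0 CPM (1.49 ± 0.29, adjusted p = 0.00597). Of the glucose transport and GLUT4 trafficking genes 3 of 18 were called. Slc2a3, the transporter GLUT3, fell from 223 and 192 to 55.4 and 39.7 CPM (-1.99 ± 0.27, adjusted p = 6.18e-04), and Sort1, the sortilin of GLUT4 vesicles, rose by 1.17 on the log2 scale. The remaining call, outside the 12 genes that the naming rule took by size, was Rab10, a GTPase of GLUT4 vesicles, higher by 0.94. Without SAT 2 months replicate 1 or 2 the lists held 5 and 3 calls in place of 13, and without SAT 24 months replicate 1 they held 8. On leaving out each SAT library in turn, Grb14, Pik3cd and Slc2a3 were called in all 4 fits, Ptpn6 in 3, Stc2 and Sort1 in 2, Igfbp5, Stat5a, Sh2b2, Inppl1 and Rab10 in 1, and Enpp1 in none (adjusted p from 0.0627 to 0.249).

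Between depots at 24 months, no member was called in adipocytes. None of 9 was called by edgeR, none had an unadjusted p under 0.05 and none was called by DESeq2, beside 0.132% of 12919 genes called by edgeR. Ghr, at 12796 and 16798 CPM in VAT, differed by 0.20 ± 0.34 on the log2 scale, and Igfbp3, at 7.35 and 4.7 CPM against 11.8 and 13.5 CPM in SAT, by -0.85 ± 0.53. The second VAT library rests on 153 adipocyte nuclei. Of the pathway genes 1 of 82 was called: Grb14, at 22.7 and 30.5 CPM in VAT against 117 and 118 CPM in SAT (-2.21 ± 0.28, adjusted p = 0.0138), a call lost without VAT replicate 1 (adjusted p = 0.16).

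In T cells of SAT, the IGF-I receptor rose with age. Igf1r measured 204 and 227 CPM at 2 months and 1008 and 888 CPM at 24 months, a log2 fold change of 2.19 ± 0.19 (adjusted p = 6.33e-06), and 505 CPM in the VAT library with enough T cells. The 2 ages did not overlap. It was the 1 call among 8 members tested, beside 11.1% of 12429 genes (6.77% higher), and the fit held 5 libraries because VAT replicate 1 had 9 T cells. With nuclei thinned to 1000 UMIs, 12.6% (95% exact interval 10.9 to 14.4) and 14.3% (12.9 to 15.8) of young T cell nuclei held an Igf1r UMI against 48.6% (44.2 to 52.9) and 44.6% (37.7 to 51.7) of aged ones, from 17.7%, 17.6%, 55.6% and 50.5% unthinned. Adipocyte nuclei, where Igf1r was low, held 4.14%, 5.33%, 5.63% and 3.11% in the same libraries.

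The T cells of the 2 ages were spread differently over the clusters, a difference given without a test. Of 7 T cell clusters, the 2 led by genes including Il23r, the interleukin-23 receptor of type 17 lymphocytes, held 13.2% and 11.4% of T cells at 2 months and 60.2% and 62.7% at 24 months. In the cluster led by Il18r1 and Il23r it measured 529 and 461 CPM at 2 months and 1511 and 1480 CPM at 24 months (1.60 ± 0.28, adjusted p = 3.67e-06). In the cluster led by Scart1 and Scart2, receptors of gamma-delta T cells, it measured 759 and 1073 against 1526 and 1102 CPM and was not called (0.55 ± 0.26, adjusted p = 0.497). In the cluster led by Gm2682 and Lef1 it rose from 122 and 136 to 350 and 346 CPM (1.31 ± 0.30, adjusted p = 3.55e-04). The other 4 clusters had at least 20 nuclei in 1 of the aged SAT libraries and were not tested. Igf1r there was at 69.3 and 93 CPM in young and 79.0 CPM in aged SAT in the cluster led by Cd8a, and at 57.5 and 126 against 114 CPM in that led by Gm10800. The aged value was below both young ones in the clusters led by Ctla4 and Il2ra and by Mki67 and Top2a. In the first, with genes of regulatory T cells, it was 261 against 347 and 325 CPM. In the second, with genes of dividing cells, it was 33.3 against 69.7 and 86.6 CPM. The aged values of these 4 clusters rest on 4, 3, 18 and 2 UMIs of SAT 24 months replicate 1, in the order named. Within clusters, Igf1r was thus called higher with age in 2 of the 3 that had at least 20 nuclei in every SAT library. The fits by cluster were added after the data were seen.

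**Figure D4:**
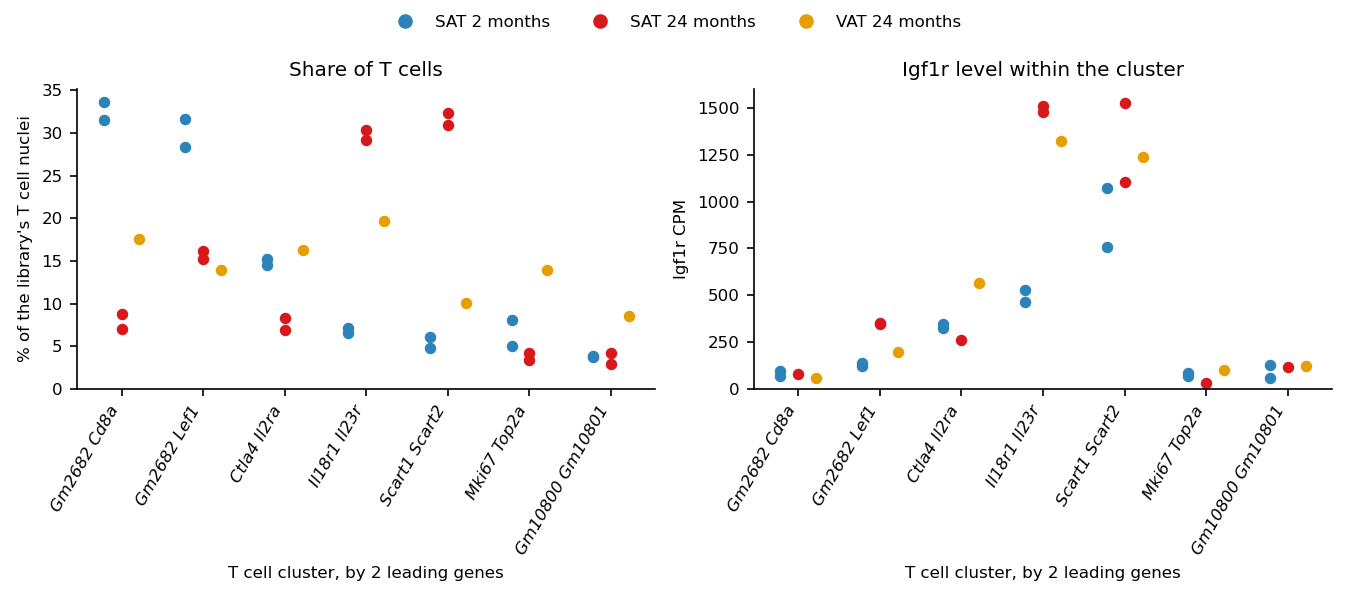
Share of each library's T cell nuclei in each of 7 clusters (left) and CPM of Igf1r within the cluster where it has at least 20 nuclei (right); points are libraries, and VAT replicate 1 with 9 T cells is not drawn. The 2 clusters led by Il18r1 and by Scart1 held 29.2% to 32.4% each of aged SAT T cells, and Igf1r in the Il18r1 cluster was at 461 and 529 CPM in young and 1480 and 1511 CPM in aged SAT.

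Of the pathway genes, 11 of 73 were called in T cells with age (8 rose, 3 fell), 15.1% beside the 11.1% of all genes. Cish and Socs1, inhibitors of cytokine and growth hormone signalling, rose by 1.45 ± 0.22 and 1.41 ± 0.22 on the log2 scale (adjusted p = 6.76e-04 and 8.49e-04). Cish went from 54.3 and 67.5 to 142 and 191 CPM. Socs3, another inhibitor of that family, fell from 40.5 and 39.3 to 17.5 and 16.2 CPM (-1.16 ± 0.34, adjusted p = 0.0431), a call lost on leaving out any 1 SAT library (adjusted p from 0.0733 to 0.232). Rhoq, a GTPase of GLUT4 trafficking, rose by 1.33 ± 0.30, but by 0.68 without SAT 24 months replicate 1 (adjusted p = 0.413), and it was not called without SAT 2 months replicate 2 either. Igfbp4, an IGF-binding protein, fell from 130 and 173 to 19.8 and 45.4 CPM (-2.40 ± 0.33, adjusted p = 2.46e-04). The shift between clusters moved with these values, and its part in them was not tested. Ghr in T cells, at 56.4 and 48.1 against 53.5 and 292 CPM, was not called (1.52 ± 0.48, adjusted p = 0.0589), and without SAT 24 months replicate 2, the library with the high value, its log2 fold change was 0.14. Without any 1 of the other SAT libraries it was called, at 1.52 to 2.46. Within clusters, edgeR called Ghr in that led by Scart1 and Scart2 (3.20 ± 0.56, adjusted p = 4.70e-06). It was there at 17.6 and 23.3 against 34.8 and 420 CPM, the high value again from SAT 24 months replicate 2. In the clusters led by Il18r1 and by Gm2682 and Lef1 it was not called (adjusted p = 0.0781 and 0.887).

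Outside adipocytes most Ghr counts stayed below what adipocyte RNA alone would give. That level was taken as Ghr CPM in adipocytes multiplied by the ratio of the summed Adipoq, Plin1, Plin4 and Cidec in the class and in adipocytes of the same library. Over 50 class and library pairs Ghr was above it in 11. Of these, FAPs gave 4 of 6, epithelial nuclei 4 of 5, endothelial nuclei 1 of 6 and mesothelial nuclei 1 of 2. In immune classes it was above in 1 of 31. The level itself depended on the markers used. With Adipoq alone it moved in 10 of the 16 sums of T cells, B cells and macrophages, upward each time, as from 155 to 541 CPM in B cells of the second VAT library, and Ghr changed side in none of the 16. Igf1r was above its own level in 49 of 50 pairs, Insr in 49, Socs2 in 46, Irs2 in 44, Igf1 in 40, Igfbp3 in 39, Irs1 in 34 and Slc2a4 in 26. Macrophages held 166 and 140 CPM of Ghr at 2 months and 823 and 1627 CPM at 24 months (3.10 ± 1.07, adjusted p = 0.297), where adipocyte RNA alone would give 413 and 323, then 808 and 2989 CPM. A macrophage cluster led by Mrc1, F13a1 and Mctp1 held 7638 and 9010 CPM of Ghr in the 2 libraries with at least 20 such nuclei, SAT 24 months replicate 2 and VAT replicate 1, a level like that of adipocytes, while 3 other macrophage clusters reached at most 439 CPM in any library. Its 29 and 38 nuclei there gave 654 of 838 and 963 of 1092 Ghr UMIs of the macrophages. They also held 210 and 262 CPM of Irs1 and 210 and 84.2 CPM of Slc2a4. Elsewhere, 4 such nuclei gave 77 of 94 in SAT 24 months replicate 1. In young SAT 13 and 14 such nuclei gave 34 and 45 Ghr UMIs, and in VAT replicate 2, 9 gave 11. The remaining macrophage cluster, led by Saa3 and Marco, had fewer than 20 nuclei in every library. It held 50 Ghr UMIs in 9 nuclei of SAT 24 months replicate 2 and at most 9 UMIs in any other library. In the clustering of all nuclei, a cluster of 70 nuclei led by Retnla, F13a1, Mrc1 and Mctp1 had macrophage markers at a mean log2 fold of 2.58 over other nuclei and adipocyte markers, its second list, at 1.07. The part of adipocyte RNA in the Ghr of these nuclei was not tested. In SAT replicate 2 at 24 months and VAT replicate 1, adipocyte nuclei were 46.4% and 65.6% of the library, against 3.02% to 27.1% elsewhere, and these were the libraries with the most Ghr in immune nuclei as a whole, 717 and 2074 CPM against 51.5 to 100 CPM.

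**Figure D5:**
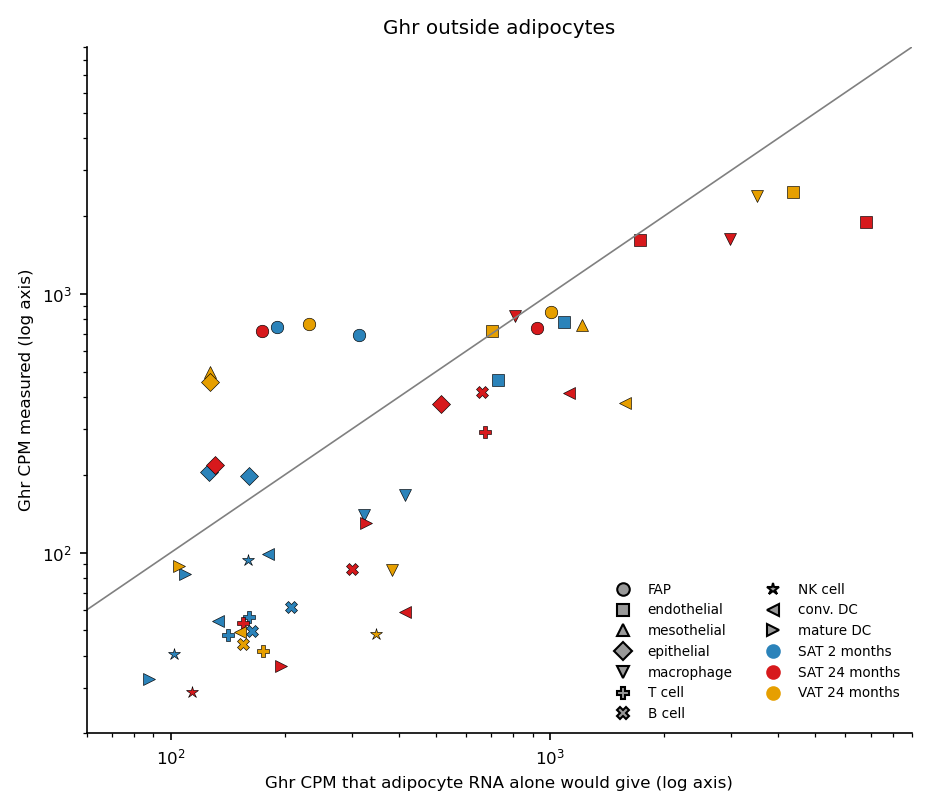
Ghr CPM measured in each class outside adipocytes against the Ghr CPM that adipocyte RNA alone would give there (both log axes), with 1 point per class and library, shapes for classes, colours for groups and a line where both are equal. FAP points lay at 696 to 852 CPM, below the line in 2 of 6 cases, and immune points lay below it in 30 of 31.

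In B cells of SAT, 2 of 6 members tested were called with age, beside 2.74% of 10392 genes (1.67% higher). Ghr went from 61.6 and 49.8 to 86.7 and 417 CPM (2.10 ± 0.47, adjusted p = 0.0178), and Irs2 from 21.7 and 22.3 to 45.4 and 176 CPM (2.21 ± 0.51, adjusted p = 0.0203). The calls depended on single libraries. Without SAT 24 months replicate 2, with 77 B cells, the log2 fold changes were 0.71 (adjusted p = 0.365) and 1.11 (adjusted p = 0.262), without SAT 2 months replicate 2 neither was called (0.177 and 0.153), and without SAT 2 months replicate 1 Irs2 was not (0.13). Adipocyte RNA alone would give 661 CPM of Ghr in the B cells of SAT 24 months replicate 2, where 417 CPM was measured. DESeq2 called neither. Of 71 pathway genes, Phlpp1, a phosphatase of AKT, and Ptpn1, the phosphatase PTP1B of the insulin receptor, rose, by 1.76 ± 0.34 and 1.34 ± 0.32. Without SAT 2 months replicate 1 or 2 neither was called, with adjusted p from 0.205 to 0.828.

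In epithelial nuclei of SAT no member was called with age among 9 tested, 2 had an unadjusted p under 0.05 and DESeq2 called none, beside 7.35% of 13644 genes called by edgeR. Irs1 was at 562 and 677 CPM in young and 553 and 506 CPM in aged nuclei, with no overlap but no call. Socs2 was at 92.8 and 120 against 125.5 and 94.3 CPM, overlapping between ages. Summed over the class, signal transducers of the growth hormone and prolactin receptors fell. The class pooled clusters led by genes including Csn3 and by genes including Areg, and the part of a shift between them was not tested. Stat5a went from 1023 and 787 to 102 and 147 CPM (-2.84 ± 0.23, adjusted p = 9.99e-07) and Jak2 from 299 and 358 to 99.5 and 119 CPM (-1.57 ± 0.20, adjusted p = 1.08e-04). In all, 14 of 82 pathway genes were called (5 rose, 9 fell), 17.1% beside 7.35% of all genes. Trib3, an inhibitor of AKT, fell by 2.51 ± 0.47, and Pik3cd, the leukocyte subunit, by 2.36 ± 0.37. In immune nuclei Pik3cd was at 522 and 560 CPM in young and 289 and 193 CPM in aged SAT. The part of immune RNA in the Pik3cd of epithelial nuclei was not tested. Igfals, which holds IGF-I in its blood complex, rose by 1.52 ± 0.39, a call lost on leaving out any 1 SAT library.

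In FAPs, endothelial nuclei, macrophages, conventional and mature dendritic cells, immune nuclei as a whole and all nuclei summed, no member was called by edgeR in any contrast tested, beside 1.43% of genes in mature dendritic cells with age, 0.947% in conventional ones with age, 0.0257% in endothelial nuclei with age, 0.0253% in FAPs, 0.0238% in macrophages and 0.0138% in all nuclei between depots, and 0% elsewhere. At an unadjusted p under 0.05 the age contrast had 0 members in FAPs, 2 in endothelial nuclei, 3 in macrophages and 1 each in the other 4, and the depot contrast had 1 among immune nuclei, Socs2, at 11.0 and 42.0 CPM in VAT against 220 and 198 CPM in SAT. DESeq2 called that 1 and no other in these classes. The class named conventional dendritic cells also held a cluster of 164 nuclei led by Siglech, a gene of plasmacytoid dendritic cells. Mature dendritic cells, the class with the most Socs2, were 1 and 39 nuclei in the VAT libraries against 196 and 188 in aged SAT. Within them Socs2 was at 981 and 710 CPM at 2 months and 684 and 615 CPM at 24 months (-0.20 ± 0.20, adjusted p = 0.809). In FAPs Socs2 went from 89.96 and 112 to 25.3 and 15.7 CPM (-2.43 ± 1.11, adjusted p = 0.484), and was at 10.9 and 135 CPM in VAT, the higher value in the library that stood apart. Summed over all nuclei, Ghr was at 1392 and 733 CPM in young SAT, 3954 and 6940 CPM in aged SAT, and 10171 and 1074 CPM in VAT, which ran in the order of the libraries' adipocyte shares apart from the second VAT library, lowest in that share and above 1 young library in Ghr.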

How the data were processed

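The authors made single-nucleus libraries with the Singleron GEXSCOPE kit, and the deposited files hold raw UMI counts per gene and barcode, made with Celescope on GRCm39 per the methods (version and annotation not given in the sources used here). Nuclei with over 1000 UMIs, over 500 genes and under 15% mitochondrial UMIs were kept, as in the study. They were clustered on 1000 variable genes (members and mitochondrial genes left out), 30 principal components, a Harmony correction by library and Leiden clustering at resolution 2.0 (immune nuclei again at 1.0; scanpy 1.11.5, leidenalg 0.10.2). Clusters were named from marker lists, by a rule adjusted after clusters were seen: at least 3 markers and 0.4 of a list over 2-fold, with mixed or low-UMI clusters unnamed. A library under 20 nuclei of a class, or under 10% of the highest library's summed markers of that class, was left out of it; this second rule was set after the data were seen. Scrublet marked 36 nuclei (0.133%), too few to have worked, so no doublets were removed.

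Counts were summed per class and library and tested with edgeR 4.0.16 (R 4.3.3; quasi-likelihood, TMM, filterByExpr, 3 groups in 1 fit), with Benjamini-Hochberg adjustment over every gene tested for that class and comparison, and calls were made below 0.05. SE is the log2 fold change divided by the square root of F. Simulated adipocyte counts of 12919 genes gave calls for 100% of genes raised 4-fold, 82% of genes lowered 4-fold and 0.0822% of unchanged genes. Shares carry exact 95% binomial intervals. With 2 libraries a group, whose separate animals the labels do not state, p-values measure the spread between these libraries. How far same-numbered libraries deviated together is given below, and it cannot tell whether they share a mouse. Of the 9 members, 3 to 9 passed the filter on low counts in a class and were tested there, and values are given for those a result turns on; of the pathway lists, up to 12 called genes in adipocytes and 5 elsewhere were named by size of change, with Stat5b, Cish and Rab10 in adipocytes and Socs3 in T cells named after their values were seen. Some genes that this rule takes are not reported here, though they stand in the counts. The members and lists were chosen with earlier results of these data known. Gene positions are from GENCODE M39 and promoter sequences from RefSeq. Alternatives were other scaling, DESeq2 1.42.0, no filter, a replicate block, 4 libraries alone, leave-one-out, doublet scores, under 5% mitochondrial UMIs, resolution 1.0 and no Harmony.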

Additional observations from a re-analysis of the deposited data

How the results depend on the processing

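The log2 fold changes of members and pathway genes were followed for their side of the threshold and for the direction of any call. Under the alternatives other than leaving out 1 library, 540 kept both, 52 lost the call and 13 gained it. On leaving out 1 library 167 kept both, 81 lost the call and 4 gained it. None turned direction past a call, but some that were not called changed sign. Igf1r with age in adipocytes, at -0.12 in the main fit, was at 0.13 with no filter and 0.23 without SAT 24 months replicate 2. The members called with age in adipocytes numbered 2 to 3 under the first kind, though with 4 libraries alone Ghr was lost (adjusted p = 0.0712) and Igf1 gained (0.0324), and ranged from 1 to 2 on leaving out a library each, and called pathway genes there from 3 to 12. Pathway genes called between depots in adipocytes were 1, with 3 under no filter on low counts and 0 to 3 on leaving out a library. In T cells, 1 member was called with age, against 2 at resolution 1.0, by library size, with no filter, with a replicate block and without the top 5% of doublet scores, 3 with no batch correction, and 1 to 3 on leaving out a library. In B cells, 2 were called, against 0 by DESeq2, with 4 libraries alone and without the top doublet scores, 1 at resolution 1.0, with no batch correction and under 5% mitochondrial UMIs, and 0 to 2 on leaving out a library. With no filter on low counts the members called with age were 3 in all nuclei, 3 in immune nuclei and 2 in macrophages, and 2 between depots in immune nuclei. With 4 libraries alone 2 were called with age in macrophages, DESeq2 called 1 between depots in immune nuclei, and without the top doublet scores 1 was called with age in mature dendritic cells. On leaving out a library the members called, 0 in the fit of all libraries, ranged from 0 to 3 between depots in FAPs, 0 to 2 in all nuclei, 0 to 1 in immune nuclei and 0 to 1 in macrophages, the highest each time without VAT replicate 1 (in immune nuclei also without VAT replicate 2), and with age from 0 to 1 in conventional and in mature dendritic cells and in epithelial nuclei, the highest without SAT 24 months replicate 1. The cause of these moves was not tested. Deviations of same-numbered libraries from their group means correlated at -0.476 to 0.182 in all nuclei and at -0.0813 to 0.112 in adipocytes. For SAT and VAT at 24 months the values were -0.476 and 0.112. Libraries differ in their shares of classes, so these values cannot tell whether 2 libraries share a mouse. The replicate block moved the T cell count alone among counts by over 1.5 times. Removal of Scrublet's own calls was not run, and removal of the top 5% of scores (1428 nuclei) and the fits by cluster were chosen after seeing the data. A library left alone in its group is assumed to vary like the others. With 1380 to 1878 UMIs in a median nucleus and 153 adipocytes in the second VAT library, differences between depots in genes at a few CPM rest on few UMIs.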
